A study of Mus musculus with 6 samples.

Results

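The 9 mouse genes described here encode host proteins that anthrax toxin uses or attacks: the toxin receptors Antxr1 and Antxr2, the protease gene Furin, and 6 MAP kinase kinases, Map2k1, Map2k2, Map2k3, Map2k4, Map2k6 and Map2k7. They were chosen by name from the 24848 gene rows of the deposited table, and no level, fold or threshold entered the rule. The list was drawn up with earlier results on these libraries known, so a count of its changed genes is a description and not independent evidence. All 9 genes were found, each by its own symbol, and 9 of 9 passed the filter on low values that left 10614 genes for testing.

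The libraries came from RAW 264.7 cells, a macrophage-like mouse line, in 2 groups of 3: unmodified cells (WT) and cells labelled as an APOBEC1 knockout (KO). APOBEC1 is an enzyme that edits C to U in RNA, and the series was made to compare 2 ways of measuring such editing. Both groups grew in the same high-glucose medium with low-endotoxin serum and received no toxin or other treatment. The labels give no method of knockout and no number of clones, so effects of the knockout and of other differences between the 2 populations cannot be told apart. Each library came from its own plate, so that p-values reflect plate-to-plate spread, which may be technical. Apobec1 itself had 373, 431 and 396 CPM in WT replicates 1 to 3 and 339, 340.1 and 361 CPM in KO replicates 1 to 3. Its KO values were lower without overlap, and the difference was not called (log2 fold change -0.20 ± 0.07, limma adjusted p = 0.0663). The altered part of the gene is not given in the labels, so its RNA level does not check them.

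Anthrax toxin is made of a binding part, protective antigen, and 2 enzymes, lethal factor and oedema factor. As textbook background, protective antigen binds ANTXR1 or ANTXR2 on the cell surface and is cut by furin. The cut form assembles into a ring that is taken up with its enzymes and lets them into the cytosol. Lethal factor is a protease that cuts MAP kinase kinases near their N-terminus, where they dock on their substrates, and so blocks the ERK, p38 and JNK pathways. Macrophages are well-known targets, and lethal toxin kills those of some mouse strains quickly through the sensor NLRP1B. In uninfected animals the receptors bind matrix collagens and furin matures many secreted and membrane proteins.

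Of the 9 genes, Antxr1 and Furin and Map2k7 were lower in KO and Antxr2 was higher, while 5 kinase genes were not called. Antxr1 stood apart in size, with a level in KO that was 9.93-fold below that in WT. The other called genes differed by less than 1.31-fold in means. A gene was called where its adjusted p was under 0.05 (limma on log2(CPM + 0.5), Benjamini-Hochberg over all tested genes). By that rule 30.4% of all tested genes were called, 13.5% as higher and 16.9% as lower, against 1 higher and 3 lower among the 9. WT and KO values were fully separated in 7 of the 9 genes, beside 46.4% of all tested genes. The median log2 fold change of the 9 was -0.03 and that of all tested genes -0.02.

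Libraries held 50493447 to 70411383 reads assigned to genes, and a single read was worth 0.0142 to 0.0198 CPM (counts scaled to a common library size). The least-read of the 9 genes in any library, Antxr1 in a KO library, still had 358 reads. The ribosomal precursor Rn45s took 0.381 to 2.75% of the reads in WT and 0.542 to 1.40% in KO. Macrophage marker genes were present as labelled: 8 of 8 were tested. Their summed level was 2973 to 3060 CPM in WT and 3228 to 3561 CPM in KO. Lyz2 (708 ± 49.0 CPM in WT, 1238 ± 121 CPM in KO) and Mertk were the 2 called higher. Adgre1 (45.4 ± 2.22 CPM in WT, 31.9 ± 2.38 CPM in KO) and Fcgr1 were the 2 called lower. The higher sum in KO rested on Lyz2, and the means of Csf1r (865 and 747 CPM) and Cd68 (947 and 901 CPM) were lower in KO. Of 33 markers of fibroblasts, epithelium, endothelium, lymphocytes, granulocytes and dendritic cells, 15 were at 0 in each library and 31 stayed below 1 CPM in each. Their summed level was 6.08 to 7.09 CPM in WT and 6.44 to 8.04 CPM in KO. The 2 that were tested were the granulocyte gene S100a8, higher in KO at 3.99 ± 0.761 against 0.944 ± 0.112 CPM, and the dendritic cell gene Zbtb46, lower at 1.62 ± 0.184 against 4.34 ± 0.426 CPM (SD, n = 3 each). S100a8 passed the filter on low values through its KO libraries. In bulk RNA, fewer cells that express a gene and less RNA per cell cannot be told apart.

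Promoters are shown for the 3 called genes that have an entry in the RefSeq promoter table (GRCm38.p6), because members that were higher and members that were lower can then be set side by side. Each line gives the 250 bases before the farthest upstream start, 5′ to 3′ on the strand of the gene, and capitals mark TATAAA (the TATA box) and GGGCGG (the GC box) on either strand. Of the 9 genes, 8 had an entry; Antxr1 did not match.
Antxr2 (chr5:98031018-98031267, minus strand): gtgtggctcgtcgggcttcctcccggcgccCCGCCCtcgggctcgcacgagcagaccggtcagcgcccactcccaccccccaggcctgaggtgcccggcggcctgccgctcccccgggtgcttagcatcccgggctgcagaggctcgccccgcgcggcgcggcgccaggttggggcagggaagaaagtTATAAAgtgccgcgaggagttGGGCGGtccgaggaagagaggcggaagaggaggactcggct
Furin (chr7:80405437-80405686, minus strand): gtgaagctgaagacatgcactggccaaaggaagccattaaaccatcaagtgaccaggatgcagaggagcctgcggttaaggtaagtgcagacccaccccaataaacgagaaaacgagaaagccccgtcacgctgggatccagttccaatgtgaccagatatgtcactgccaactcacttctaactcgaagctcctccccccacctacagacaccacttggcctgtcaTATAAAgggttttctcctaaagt
Map2k7 (chr8:4238490-4238739, plus strand): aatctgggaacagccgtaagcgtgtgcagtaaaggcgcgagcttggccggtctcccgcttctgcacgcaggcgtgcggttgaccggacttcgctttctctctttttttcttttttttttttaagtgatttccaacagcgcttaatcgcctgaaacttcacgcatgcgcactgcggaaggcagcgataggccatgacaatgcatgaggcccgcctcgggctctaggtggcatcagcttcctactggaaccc

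These 3 stretches differ in base composition. That of Antxr2 is 72.8% G or C with 28 CpG pairs, that of Map2k7 54.4% with 19, and that of Furin 50.4% with 6, beside medians of 52.4% and 6 over the 32851 promoters of the table. TATAAA begins 62 bases before the start in Antxr2 and 23 bases before it in Furin. It was not in the 250 bases of Map2k7. In all promoters of that length 12.4% hold TATAAA and 32.7% hold GGGCGG on either strand. GGGCGG was found 2 times in Antxr2, 4 times in Map2k1, 3 times in Map2k3 and 1 time in Map2k2. Other motifs searched on both strands were CCAAT (in 33.9% of all promoters), CACGTG (the E-box, 6.02%), TGANTCA (the AP-1 site, 6.75%) and GAGGAA (the core of the site of the macrophage factor PU.1, 23.3%). GAGGAA was found 2 times in Antxr2 and in no other of the 8 genes, and TGANTCA 1 time in Map2k6 alone of the 8. CCAAT was found 2 times in Furin, 2 times in Map2k1 and 1 time in Map2k3. CACGTG was in 0 of the 8. These matches describe letters and not sites that a factor was shown to bind.

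Antxr1 encodes a single-pass membrane receptor with a von Willebrand factor A domain, first known as a marker of tumour endothelium. It lies on chromosome 6 from 87133853 to 87335821 on the minus strand (ENSMUSG00000033420.12, mm10, protein-coding). Its levels in WT replicates 1, 2 and 3 were 51.8, 58.2 and 55.6 CPM, and in KO replicates 1, 2 and 3 they were 5.08, 6.01 and 5.60 CPM. All KO values lay far below the lowest WT value, and the spread within each group was narrow beside the gap. Means were 55.2 ± 3.17 CPM in WT and 5.56 ± 0.462 CPM in KO (SD, n = 3 each), a log2 fold change of -3.20 ± 0.09 (SE; limma adjusted p = 4.09e-07). Of the 10614 tested genes, 20 were as low as Antxr1 on this scale or lower, itself included. Because the added 0.5 CPM understates changes of low genes, some genes with a larger ratio of means ranked behind Antxr1. The transcript was still present in every KO library. Antisense genes share 1.17% of its exon bases (n-R5s164), and no stretch of 100 bases of its longest transcript occurs in another annotated gene.

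Antxr2 encodes the other receptor, which shares the A domain and is known for binding collagen IV and laminin and for the loss-of-function disease hyaline fibromatosis. It lies on chromosome 5 from 97882783 to 98031043 on the minus strand (ENSMUSG00000029338.13). WT replicates 1 to 3 had 52.1, 55.1 and 56.7 CPM, and KO replicates 1 to 3 had 68.3, 74.3 and 70.2 CPM. Every KO value was above every WT value. The mean was 54.6 ± 2.32 CPM in WT and 70.9 ± 3.05 CPM in KO, 1.299-fold higher (log2 fold change 0.37 ± 0.07, limma adjusted p = 0.00430). The receptors thus differed from WT in opposite directions. Within 1 Mb of Antxr2 only 2 other genes were tested, and both were called higher, at 0.40 and 0.50. Over all tested genes 13.5% were called higher, and the median of chromosome 5 was -0.02.

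**Figure D1:**
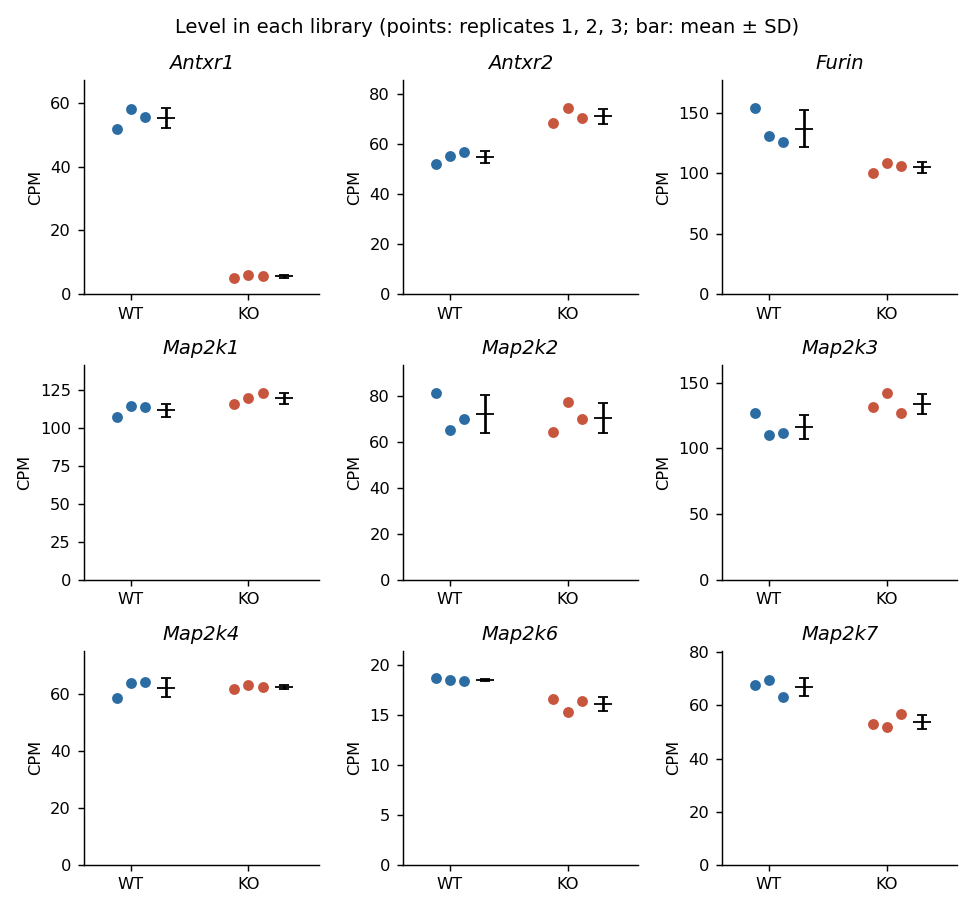
Level of each of the 9 genes in CPM (vertical axes start at 0) in the 3 WT and 3 KO libraries; points are replicates 1, 2 and 3 from left to right and bars are the mean ± SD of each group. Antxr1 stands at 51.8 to 58.2 CPM in WT and 5.08 to 6.01 CPM in KO, and of the 9 genes only Map2k2 and Map2k4 show groups that overlap.

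The balance of the receptors was compared per transcript length, as CPM per kb of the median annotated transcript (3.17 kb for Antxr1 and 2.74 kb for Antxr2). On that scale Antxr1 made up 46.2, 47.7 and 45.9% of the summed receptor level in WT and 6.04, 6.53 and 6.44% in KO. The receptors were thus near parity in WT, and the transcript of Antxr2 was by far the more abundant in KO. Their sum went from 37.4 ± 1.72 to 27.7 ± 1.26 CPM per kb, a ratio of 0.740. With the longest transcript of each gene as its length, the share of Antxr1 was 52.1 ± 0.955% in WT and 7.78 ± 0.314% in KO. With the union of exons it was 41.4 ± 0.930% and 5.18 ± 0.215%. Which receptor was the higher in WT therefore depended on the length used, and Antxr2 was the higher in KO with each of the 3 lengths.

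Genes around Antxr1 were read next, because chromosome 6 as a whole had a median log2 fold change of -0.16 over its 517 tested genes. Within 1 Mb on each side, measured between gene centres, 26 other genes were tested. Their log2 fold changes ran from -0.67 to 0.11 with a median of -0.16. In limma 5 were called lower and 0 higher, beside 16.9% and 13.5% of all tested genes. The counts were the same in edgeR and DESeq2, which called 3359 and 3758 of the 10614 tested genes in either direction. At an unadjusted p under 0.05 in limma 9 were lower and 0 higher. The share of all tested genes at that unadjusted threshold is not given here, so these counts have no background beside them. None of these 26 differed as much as Antxr1, and the nearest in size was 2610306M01Rik at -0.67 (named after its value was seen). Relative to the chromosome median, the difference of Antxr1 was -3.04. Counting Antxr1, 2 of the 517 tested genes of chromosome 6 were as low or lower.

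**Figure D2:**
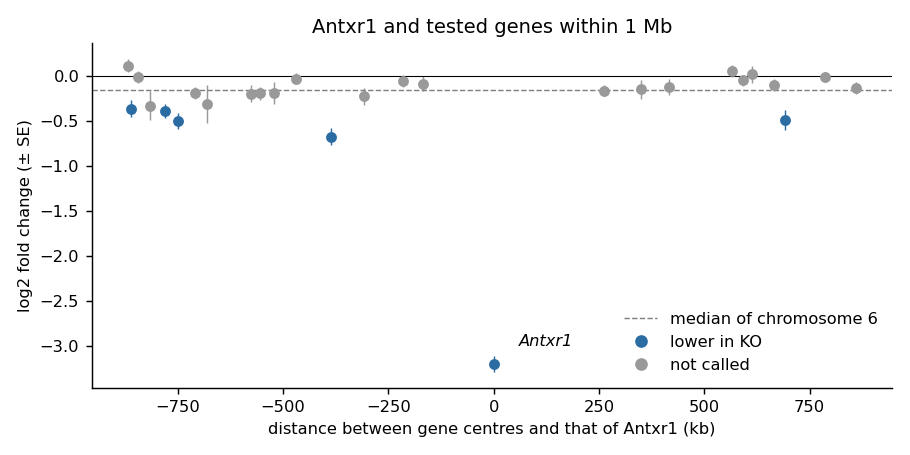
Log2 fold change (KO against WT, ± SE) of Antxr1 and the 26 other tested genes within 1 Mb, by the distance of their centres from that of Antxr1 in kb; colour marks the call and the dashed line is the median of chromosome 6. Antxr1 lies at -3.20 and the 26 other genes between -0.67 and 0.11.

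By the rule for likeness, the 3 tested genes whose profile over the 6 libraries came closest to that of Antxr1 were Greb1, Cldn11 and Npl. Likeness was the root mean square difference of log2(CPM + 0.5) values after each gene's mean was subtracted, 0.06 for Greb1, 0.10 for Cldn11 and 0.11 for Npl. Greb1 had 3.86 to 4.36 CPM in WT and 0 to 0.0300 CPM in KO. Cldn11, a claudin of tight junctions, had 3.62 to 4.13 CPM in WT and 0 to 0.0284 CPM in KO. For these low genes the size of the difference on this scale is set by the added 0.5 CPM. Npl, which encodes N-acetylneuraminate pyruvate lyase, an enzyme of sialic acid breakdown, had 10.7 to 11.5 CPM in WT and 0.525 to 0.810 CPM in KO. Its KO values were close in size to the added 0.5 CPM, which therefore also shaped its difference. The log2 fold change of Npl ran from -3.97 to -2.83 over the other settings. The 3 genes lie on chromosomes 12, 3 and 1. Each had KO values under 1 CPM, so all 3 passed the filter on low values only through their WT values.

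Uptake of the receptors is known to involve their phosphorylation by Src-family kinases, ubiquitin addition by CBL, beta-arrestin and clathrin, and LRP5 and LRP6 have been studied as partners. Of 12 genes listed for uptake, 10 were tested, with a median log2 fold change of 0.11. Among them 1 was higher and 1 was lower, beside 13.5% and 16.9% of all tested genes. Arrb1, which encodes beta-arrestin 1, rose from 159 ± 5.08 to 220.1 ± 15.0 CPM (log2 fold change 0.46, limma adjusted p = 0.00197). Fyn, a Src-family kinase gene, fell from 22.4 ± 2.28 to 17.1 ± 0.532 CPM (log2 fold change -0.38, limma adjusted p = 0.0167). The call of Fyn was lost without KO replicate 1, 2 or 3 (limma adjusted p = 0.0527, 0.0660 and 0.0546). In all, it held in 15 of 19 other settings. Cav1, the caveolin gene, was at 0 in all libraries. Src itself rose from 0.271 ± 0.103 to 0.842 ± 0.0792 CPM without overlap, the opposite direction to Fyn. It stayed below 1 CPM in each library and was not tested.

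Matrix proteins that the receptors bind were mostly below the filter: 7 of 9 listed genes were not tested, and 3 of the 9, Col1a1, Col6a1 and Col6a2, had 0 reads in all libraries. Col4a1, a collagen IV chain, fell from 9.24 ± 0.661 to 3.55 ± 0.184 CPM (log2 fold change -1.27 ± 0.09, limma adjusted p = 4.77e-05). Lamc1, a laminin chain, rose from 104 ± 2.86 to 136 ± 9.57 CPM (log2 fold change 0.38 ± 0.07, limma adjusted p = 0.00521). The 2 tested ligand genes thus went in opposite directions, as the receptors did. Col4a2, another collagen IV chain, rose from 0.117 ± 0.0422 to 0.254 ± 0.0146 CPM without overlap, the opposite direction to Col4a1. It had only 5 to 18 reads per library and was not tested.

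Furin encodes a calcium-dependent proprotein convertase of the trans-Golgi network and the cell surface that cuts after paired basic residues. It lies on chromosome 7 from 80388585 to 80405436 on the minus strand (ENSMUSG00000030530.15). Its levels were 154, 130.5 and 126 CPM in WT replicates 1 to 3 and 99.9, 109 and 106 CPM in KO replicates 1 to 3. The KO values all lay below the WT values, and WT replicate 1, which also had the highest share of Rn45s and the fewest reads, was the highest. Means were 137 ± 15.0 and 105 ± 4.51 CPM, so that Furin fell by 23.3% (log2 fold change -0.38 ± 0.09, limma adjusted p = 0.0135). Without WT replicate 1 the log2 fold change was -0.29 and the gene was still called (limma adjusted p = 0.00861). Without KO replicate 1 it was -0.34 and the call was lost (limma adjusted p = 0.0648). Of 30 other tested genes within 1 Mb, 3 were called higher and 6 lower, beside 13.5% and 16.9% of all tested genes. Relative to the median of chromosome 7, the difference of Furin was -0.31. The antisense gene Gm44851 shares 1.29% of the exon bases.

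Of 8 other proprotein convertase genes listed, 3 were tested, and Pcsk1 and Pcsk4 were at 0 in all libraries. Mbtps1, which encodes the site-1 protease of the Golgi, fell from 149.8 ± 5.70 to 130.3 ± 5.64 CPM (log2 fold change -0.20, limma adjusted p = 0.0453). That call was lost when any of the 6 libraries was left out (limma adjusted p = 0.0543 to 0.165). In all, it held in 9 of 19 other settings.

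The kinase genes are ordered here by the MAP kinase their products activate. Map2k1 and Map2k2 encode MEK1 and MEK2, which phosphorylate the ERK kinases. Map2k1 (chromosome 9, 64185770 to 64253631, minus strand, ENSMUSG00000004936.8) had 107, 115 and 114 CPM in WT and 116, 119.8 and 123 CPM in KO. The groups did not overlap, and the difference was not called (log2 fold change 0.10 ± 0.06, limma adjusted p = 0.260). Map2k2 (chromosome 10, 81105915 to 81133975, plus strand, ENSMUSG00000035027.18) had 81.3, 65.2 and 70.0 CPM in WT and 64.5, 77.5 and 70.1 CPM in KO. Its groups overlapped (log2 fold change -0.03 ± 0.10, limma adjusted p = 0.865), and WT replicate 1 was again the highest. The sign of that small difference changed under TMM scaling (0.02) and without WT replicate 1 (0.06) or KO replicate 1 (0.04).

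Map2k3 and Map2k6 encode MKK3 and MKK6, which activate p38. Map2k3 (chromosome 11, 60932033 to 60952811, plus strand, ENSMUSG00000018932.9) had 126.9, 110.2 and 111 CPM in WT and 132, 142 and 127.3 CPM in KO. The groups missed overlap only narrowly, since WT replicate 1 lay just below KO replicate 3. The log2 fold change was 0.20 ± 0.08 and was not called (limma adjusted p = 0.0861). Without WT replicate 1 it was 0.27 and was called (limma adjusted p = 0.0142). Map2k6 (chromosome 11, 110399122 to 110525522, plus strand, ENSMUSG00000020623.11) had 18.7, 18.5 and 18.4 CPM in WT and 16.7, 15.4 and 16.4 CPM in KO. Groups did not overlap, and the difference, -0.19 ± 0.07 in log2, was not called (limma adjusted p = 0.0759).

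Map2k4 and Map2k7 encode MKK4 and MKK7, which activate JNK, MKK4 also acting on p38. Map2k4 (chromosome 11, 65688243 to 65788297, minus strand, ENSMUSG00000033352.11) had 58.5, 63.9 and 64.2 CPM in WT and 61.9, 63.0 and 62.3 CPM in KO. These groups overlapped, with means of 62.2 ± 3.23 and 62.4 ± 0.604 CPM (log2 fold change 0.01 ± 0.06, limma adjusted p = 0.958). Map2k7 (chromosome 8, 4238740 to 4247897, plus strand, ENSMUSG00000002948.19) had 67.7, 69.7 and 63.2 CPM in WT and 52.9, 51.8 and 56.6 CPM in KO. All KO values lay below all WT values, and the mean fell by 19.6%, from 66.9 ± 3.30 to 53.8 ± 2.52 CPM. The log2 fold change was -0.31 ± 0.07 (limma adjusted p = 0.0115). The call was lost without KO replicate 1 (-0.30, limma adjusted p = 0.0543) and without KO replicate 2 (-0.29, limma adjusted p = 0.0521). Gm49320, annotated on the same strand, shares 35.2% of the exon bases of Map2k7, so its reads may be split with that gene. Within 1 Mb 18 other genes were tested, with a median of -0.22. In limma 7 were called lower and 0 higher, beside 16.9% and 13.5% of all tested genes. Relative to the median of chromosome 8 the difference of Map2k7 was -0.28.

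Summed over the 6 kinase genes, levels were 441 to 460.2 CPM in WT and 444 to 469.6 CPM in KO, and these ranges overlapped. Per kb of median transcript, the pair Map2k4 and Map2k7 made up 25.0, 27.7 and 26.8% of the summed kinase level in WT and 24.4, 23.1 and 24.3% in KO. All KO shares were below all WT shares. For Map2k3 and Map2k6 the shares were 27.8, 25.2 and 25.3% in WT and 29.0, 29.2 and 27.3% in KO, and these groups overlapped. The pair Map2k1 and Map2k2 held 47.4 ± 0.395% in WT and 47.6 ± 0.909% in KO.

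Levels can be ordered among the 9 genes only per transcript length. Per kb of median transcript, Map2k1 was the highest in WT (146 ± 5.48 CPM per kb), followed by Map2k3 (114 ± 9.18), Map2k4 (82.8 ± 4.29), Map2k2 (78.7 ± 9.04), Map2k7 (42.6 ± 2.11), Furin (39.4 ± 4.33), Antxr2 (19.9 ± 0.848), Antxr1 (17.4 ± 1.00) and Map2k6 (9.92 ± 0.0713). Of these neighbours, Map2k4 and Map2k2, and Map2k7 and Furin, had ranges that overlapped. In KO the order was the same down to Antxr2 and then differed: Map2k6 stood at 8.65 ± 0.369 CPM per kb and Antxr1, the lowest, at 1.76 ± 0.146. The median transcript is short for some kinase genes because short annotated fragments count, and the order moved with the length. Per kb of longest transcript Map2k3 (52.8 ± 4.26 in WT) stood above Map2k1 (45.9 ± 1.72), and Map2k4 (16.8 ± 0.873) fell below Furin (23.8 ± 2.62). Map2k6 was the lowest of the 9 in WT, and Antxr1 the lowest in KO, with each of the 3 lengths.

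**Figure D3:**
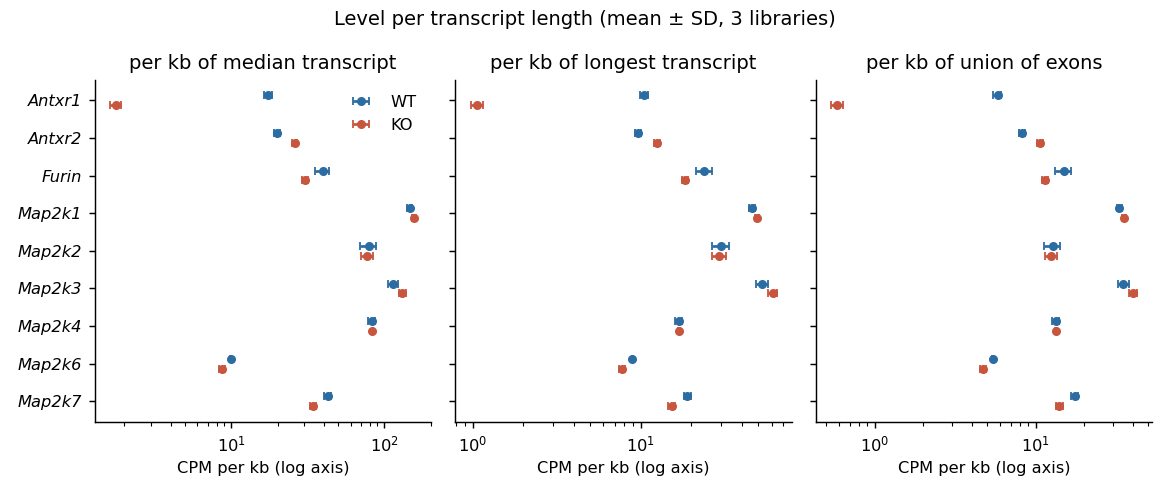
Mean level ± SD (3 libraries) of the 9 genes in CPM per kb on log axes, in WT and KO, for 3 definitions of transcript length. Antxr1 moves from 17.4 to 1.76 CPM per kb of median transcript, and the order of the kinase genes differs between the panels.

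Other genes of the kinase pathway were taken from fixed lists. Map2k5, whose product MEK5 activates ERK5 and is not among the known targets of lethal factor, had 75.6 ± 2.41 CPM in WT and 75.7 ± 3.08 CPM in KO (log2 fold change 0.00, limma adjusted p = 0.981). Of 19 MAP3 kinase genes in the table, which act upstream, 18 were tested, with a median of -0.08. Among them 3 were higher and 7 lower, beside 13.5% and 16.9% of all tested genes. Map3k6, Map3k14 and Araf were among those with the smallest adjusted p, and each of these 3 was lower. Map3k6 fell from 3.47 ± 0.175 to 0.793 ± 0.121 CPM (log2 fold change -1.62, limma adjusted p = 3.36e-05). Its KO values were 0.653 to 0.870 CPM, so it passed the filter on low values only through its WT values. Map3k14, which encodes the NF-kB inducing kinase NIK, fell from 11.1 ± 0.512 to 6.89 ± 0.662 CPM (limma adjusted p = 0.00168). Araf, which encodes a kinase directly upstream of MEK1 and MEK2, fell from 63.8 ± 6.65 to 46.2 ± 3.14 CPM (limma adjusted p = 0.00736).

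Of 10 MAP kinase genes, the substrates of these enzymes, 7 were tested. In limma 0 were called higher and 2 lower, beside 13.5% and 16.9% of all tested genes. At an unadjusted p under 0.05 in limma 0 were higher, and edgeR and DESeq2 on the recovered reads called 0 higher. The shares of all tested genes called higher under these 3 rules are not given here. Mapk11, which encodes p38 beta, fell from 3.40 ± 0.564 to 1.204 ± 0.212 CPM (log2 fold change -1.19 ± 0.15, limma adjusted p = 0.000764). Its values were near the 1 CPM of the filter in KO, with 0.966 CPM in KO replicate 1. Mapk3, which encodes ERK1, fell from 91.1 ± 8.35 to 75.4 ± 4.21 CPM (log2 fold change -0.27 ± 0.08, limma adjusted p = 0.0426). That call was lost without WT replicate 1 or 3 or KO replicate 1, 2 or 3 (limma adjusted p = 0.0588 to 0.139). Among other settings it was also lost under edgeR (adjusted p = 0.0851), DESeq2 (adjusted p = 0.0599) and TMM scaling (limma adjusted p = 0.123). In all, the call of Mapk3 held in 7 of 19 other settings. Mapk14, the main p38 gene, had 106 ± 9.85 CPM in WT and 113 ± 8.23 CPM in KO, and the ERK5 gene Mapk7 had 22.8 ± 2.39 and 20.7 ± 1.05 CPM. The JNK genes Mapk8 and Mapk9 had 47.0 ± 7.82 and 63.4 ± 6.97 CPM in WT and 39.7 ± 1.73 and 65.4 ± 2.25 CPM in KO. Mapk8 was called lower without WT replicate 1 (-0.37, limma adjusted p = 0.00474), and with all libraries it was not (adjusted p = 0.196). Mapk10, Mapk12 and Mapk13 stayed at or under 0.460 CPM.

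Downstream of the MAP kinases, 9 of 11 listed kinase genes were tested. In limma 2 were called higher and 0 lower, beside 13.5% and 16.9% of all tested genes. At an unadjusted p under 0.05 in limma 3 were higher and 0 lower, edgeR called 2 higher and 0 lower, and DESeq2 3 and 0. For these rules too the shares of all tested genes by direction are not given here. Rps6ka2, a gene of the RSK family, rose from 10.6 ± 0.508 to 17.5 ± 1.42 CPM (log2 fold change 0.70 ± 0.09, limma adjusted p = 0.000872). Rps6ka4, which encodes MSK2, rose from 22.5 ± 1.64 to 27.5 ± 2.17 CPM (limma adjusted p = 0.0435). This call was lost without WT replicate 2 or 3 or KO replicate 1, 2 or 3 (limma adjusted p = 0.0533 to 0.154). In all, it held in 11 of 19 other settings. Of 13 scaffold and adaptor genes 9 were tested, 1 higher and 1 lower, beside the same 13.5% and 16.9% of all tested genes. Iqgap1, a scaffold of the ERK pathway, rose from 632 ± 11.6 to 745 ± 37.2 CPM (limma adjusted p = 0.0260). Tab1, a partner of the kinase TAK1, fell from 30.4 ± 2.78 to 24.5 ± 0.619 CPM (limma adjusted p = 0.0301). Both calls were lost without WT replicate 2, KO replicate 2 or KO replicate 3. That of Iqgap1 was also lost without WT replicate 3 and that of Tab1 without KO replicate 1 (limma adjusted p = 0.0649 to 0.106 over these fits). Over 19 other settings in all, the call of Iqgap1 held in 13 and that of Tab1 in 14.

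Lethal factor cuts and so activates the NLRP1B sensor of sensitive mouse strains, and Nlrp1a is a paralogue of Nlrp1b whose reads may be split with it. Nlrp1b had 22.2 ± 0.876 CPM in WT and 21.3 ± 1.29 CPM in KO, and Nlrp1a 1.03 ± 0.117 and 1.12 ± 0.0906 CPM. Neither was called, nor was either by edgeR or DESeq2 (limma adjusted p = 0.609 and 0.578). Over the 9 lists together, 61 of 85 genes were tested, 8 were higher and 13 lower, beside 13.5% and 16.9% of all tested genes. The median log2 fold change of the 61 was -0.02, as over all tested genes.

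**Figure D4:**
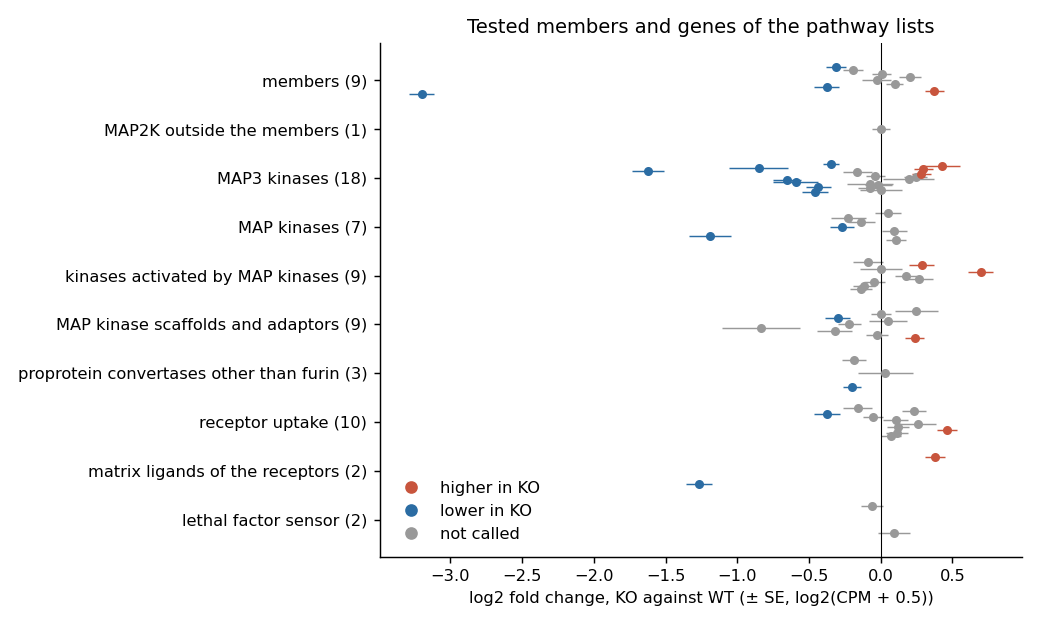
Log2 fold change (KO against WT, ± SE, on log2(CPM + 0.5)) of the 9 genes and of the tested genes of each pathway list, with the number tested in parentheses; colour marks the call. Antxr1, at -3.20, is the farthest from 0 of all genes drawn, and most kinase genes lie within 0.5 of 0.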

How the data were processed

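Libraries of mRNA (KAPA mRNA HyperPrep) were sequenced in paired ends, per the labels' protocols. The submitters' processing notes list STAR 2.6.0a, Trim Galore, SAMtools, Picard and FastQC, and build mm10. Removal of duplicates is recorded per the file headers. How reads were counted, on which annotation and strand, is not stated there. The authors deposited CPM values, which gave whole reads in 100% of values (tolerance 0.01 of a read).

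Genes reaching 1 CPM in 3 or more of 6 libraries were tested with limma 3.58.1 in R 4.3.3 (lmFit, eBayes with a trend) across all genes, on log2(CPM + 0.5). A fold change on that scale understates changes of low genes. Folds are ratios of mean CPM. The edgeR 4.0.16 and DESeq2 1.42.0 tests on recovered reads were alternatives, and the fit was tested on simulated counts. Coordinates and lengths come from GENCODE M21 (mm10), which matched 24305 of 24848 symbols.

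The members and lists were chosen with earlier results of these data known. Named by rule were the 9 genes, up to 4 called genes per list by adjusted p, the genes of the MAP kinase, MEK5 and sensor lists, and the 3 genes nearest in profile to the member with the largest change. Genes at 0, the macrophage markers, S100a8, Zbtb46, Src, Col4a2 and 2610306M01Rik were named after their values were seen. The genomic window was chosen then too. Some genes that this rule names are not reported here. RNA editing was not analysed here.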

Additional observations from a re-analysis of the deposited data

How the results depend on the processing

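Of 19 other settings, 19 kept the direction and call of Antxr1 (log2 fold change -3.29 to -3.10) and of Antxr2 (0.34 to 0.42), 18 those of Furin and 16 those of Map2k7. Calls lost were Furin without KO replicate 1 and Map2k7 without KO replicate 1 or 2, with lowest and highest values over the left-out libraries of -0.43 and -0.29 for Furin, -0.35 and -0.28 for Map2k7, and 0.16 and 0.27 for Map2k3, which was called without WT replicate 1. The uncalled Map2k2 changed sign under TMM scaling (0.0203), relative to its chromosome median (0.0046, an alternative chosen after seeing the data) and between left-out libraries (-0.098 to 0.0609), and Map2k4 under quantile normalization (-0.0038), rescaling without Rn45s (-0.0089) and between left-out libraries (-0.0379 to 0.0289). Map2k5 changed sign under quantile normalization (-0.0258), without Rn45s (-0.0122) and between left-out libraries (-0.0244 to 0.0337), Mapk9 between left-out libraries (-0.0321 to 0.126) and Nlrp1b under quantile normalization (0.0014). Nlrp1a was called higher there (0.53). The cause was not tested.

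With libraries left out in turn, members called ranged from 1 to 2 higher and 1 to 3 lower (1 without KO replicate 1), pathway genes from 4 to 12 higher and 7 to 14 lower, and all tested genes called from 1973 to 3761, the lowest without KO replicate 1. Replicate numbers did not pair the libraries: deviations from group means correlated at -0.25, -0.64 and -0.17 for equal numbers. For unequal numbers they ran from -0.44 to 0.61. The highest were 0.61 for WT replicate 2 with KO replicate 3 and 0.58 for WT replicate 1 with KO replicate 2. The replicate block gave 2009 calls over all genes, 3 pathway genes higher and 9 lower, and a log2 fold change of -0.31 for Map2k7 that was not called (limma adjusted p = 0.0664). Levels per kb kept 2 of 9 ranks in WT with the longest transcript and 3 of 9 with the exon union.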
